A study of Mus musculus with 7 samples.

Results

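The genes described here are 31 inflammatory cytokines, chemokines and targets of the transcription factor NF-kB, followed in mouse embryonic fibroblasts that lack p53 and differ in Mdm2. They were taken by gene symbol from a list of names, and all 31 were found among the 29955 gene rows of the deposited table. Of these, 25 had a mean of at least 10 normalized reads over all libraries and entered the test, within the 16900 genes tested. The other 6, Cxcl2, Il1a, Il1b, Tnf, Csf2 and Csf3, never exceeded 9.28 normalized reads in any library and were not tested.

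Inflammatory stimuli such as TNF, interleukin-1 and microbial products free NF-kB dimers from their IkB inhibitors, and the dimers bind kappa-B elements in the promoters of chemokine, cytokine, adhesion and feedback genes. Chemokines are small secreted proteins that guide leukocytes. CC chemokines such as Ccl2 attract monocytes, and the CXC chemokines Cxcl1, Cxcl2 and Cxcl5 attract neutrophils. Nfkbia and Tnfaip3, which encode inhibitors of the pathway, are themselves NF-kB targets, so that the response limits itself. Fibroblasts are a known source of many of these proteins in connective tissue.

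RNA from 7 samples of C57BL/6 embryonic fibroblasts, grown in medium with serum and antibiotics and with no inflammatory stimulus named in the labels, was sequenced. In the p53Mdm2 KO group, with 2 samples, both genes were knocked out. In the p53KO Mdm2(C462A) KI group, with 2 samples, p53 was knocked out and Mdm2 carried the knocked-in C462A change, a substitution in the RING domain through which Mdm2 acts as a ubiquitin ligase. The p53 KO group, with 3 samples, is the reference for both and retained Mdm2. All 3 groups lacked p53. The labels do not give the age of the embryos, the alleles, any Cre driver or the embryo or culture behind each replicate. The p-values below therefore measure only the spread between samples of unknown origin, which may be technical. The study's title places the comparisons within the question of what Mdm2 does to gene expression without p53.

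Recovered library totals ran from 28468283 to 41453822 reads. A gene with no read in a library could still have up to 3 reads by counting error, which is 2.65 to 3.86 normalized reads depending on the library. The libraries were not alike: 2 stood apart from the rest. p53 KO replicate 1 lay alone on the first principal component (44.3% of the variance) and p53KO Mdm2(C462A) KI replicate 2 on the second (24.9%). In p53 KO replicate 1 the fibroblast marker Thy1 had 99.1 normalized reads, against 30211 and 30830 in p53 KO replicates 2 and 3, and Col1a2, a collagen chain, had 3456, against 369580 and 547553, whereas the sum over all 9 fibroblast markers was 809124 in that library and between 539361 and 1574860 over all 7. Of the same 9 markers, Col3a1 and Vim were highest in that library, at 166679 and 155416, with Col3a1 at 166438 in p53 KO replicate 3. Col1a1, Pdgfra, Pdgfrb, Dcn and Lum lay there within the range of the other libraries. Reads of the targeted genes were present in every group. Mdm2 had 1575 and 2334 normalized reads in p53Mdm2 KO, 2033 and 2887 in p53KO Mdm2(C462A) KI and 1746, 1994 and 1915 in p53 KO. Trp53 had 1603 and 1776 in p53Mdm2 KO, 1339 and 1668 in p53KO Mdm2(C462A) KI and 687, 1396 and 1244 in p53 KO. Whole-gene totals do not show which part of a gene was removed, so these values check no label.

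The promoters of some members hold a match to the kappa-B sequence that NF-kB binds. The 4 shown here belong to the neutrophil chemokine with the smallest p-values, its near-silent neighbour and both classical feedback inhibitors. Windows from 250 bases before to 50 bases after a gene's start were available from RefSeq (GRCm38.p6) for 22 of the 31 members, 28 windows in all. The NF-kB kappa-B consensus, searched on both strands, was present for 7 of these 22 members (Ccl20, Csf1, Il6, Cxcl1, Cxcl2, Tnfaip3 and Nfkbia). Counted by window, it was in 7 of the members' 28 windows and in 4.51% of all 32851 windows. The AP-1 motif TGANTCA, searched on both strands, was present for 6 members (Il1rn, Il1a, Il6, Il11, Tnfaip3 and Lif). Counted by window, it was in 6 of the 28 windows and in 7.81% of all windows. In the members' windows, no AP-1 match overlapped a kappa-B match. Below, the 250 bases before the start are given 5′ to 3′ on the gene's strand, with the kappa-B matches in capitals.
Cxcl1 (chr5:90890995-90891244, plus strand): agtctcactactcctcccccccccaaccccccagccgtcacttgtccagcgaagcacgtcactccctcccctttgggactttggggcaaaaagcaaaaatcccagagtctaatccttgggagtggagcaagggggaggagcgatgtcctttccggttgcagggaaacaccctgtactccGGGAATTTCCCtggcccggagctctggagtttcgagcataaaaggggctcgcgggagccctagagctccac
Cxcl2 (chr5:90903649-90903898, plus strand): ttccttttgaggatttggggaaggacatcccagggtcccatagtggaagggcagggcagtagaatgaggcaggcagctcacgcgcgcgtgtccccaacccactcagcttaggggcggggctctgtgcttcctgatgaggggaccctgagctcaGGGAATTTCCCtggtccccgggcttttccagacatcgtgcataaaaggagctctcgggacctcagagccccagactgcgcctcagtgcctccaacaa
Tnfaip3 (chr10:19015411-19015660, minus strand): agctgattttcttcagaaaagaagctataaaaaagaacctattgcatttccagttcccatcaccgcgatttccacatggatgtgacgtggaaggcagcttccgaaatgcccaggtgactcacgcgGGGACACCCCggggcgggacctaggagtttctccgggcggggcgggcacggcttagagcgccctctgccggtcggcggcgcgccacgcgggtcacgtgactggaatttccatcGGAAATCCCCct
Nfkbia (chr12:55492648-55492897, minus strand): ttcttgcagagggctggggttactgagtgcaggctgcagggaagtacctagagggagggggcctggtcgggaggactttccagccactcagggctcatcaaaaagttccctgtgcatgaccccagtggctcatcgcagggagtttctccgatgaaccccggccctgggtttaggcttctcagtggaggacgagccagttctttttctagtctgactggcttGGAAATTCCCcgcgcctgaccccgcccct
In Cxcl1 and Cxcl2, a shared stretch matched once on each strand in overlapping positions, beginning 71 bases before the Cxcl1 start and 97 bases before the Cxcl2 start. Tnfaip3 had 2 separate matches, 125 and 12 bases before the start, and Nfkbia had 1, beginning 29 bases before it. These are letter matches in the reference genome and no binding was measured.

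Expression was far from uniform across the members. On a scale of normalized reads per kilobase of exon, averaged over the 7 libraries, the highest levels were those of Cxcl12, which holds stem cells and lymphocytes in their niches, with 4159, and Csf1, the growth factor of macrophages, with 4043. Ccl2 followed with 2424, Il1rl1 with 2348, Vcam1 with 1903, Ptgs2 with 1738 and Ccl7 with 1591 on the same scale. The classical inducible cytokines were at the other end. Il6 had 17.7, Csf3 3.84, Il1a 2.08, Cxcl2 1.96, Csf2 0.682, Tnf 0.658 and Il1b 0.284 normalized reads per kilobase. Tnf had no read in 6 libraries and 7.55 normalized reads in p53 KO replicate 3. The 31 genes thus ranged from abundant transcripts to cytokines at the limit of detection.

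**Figure D1:**
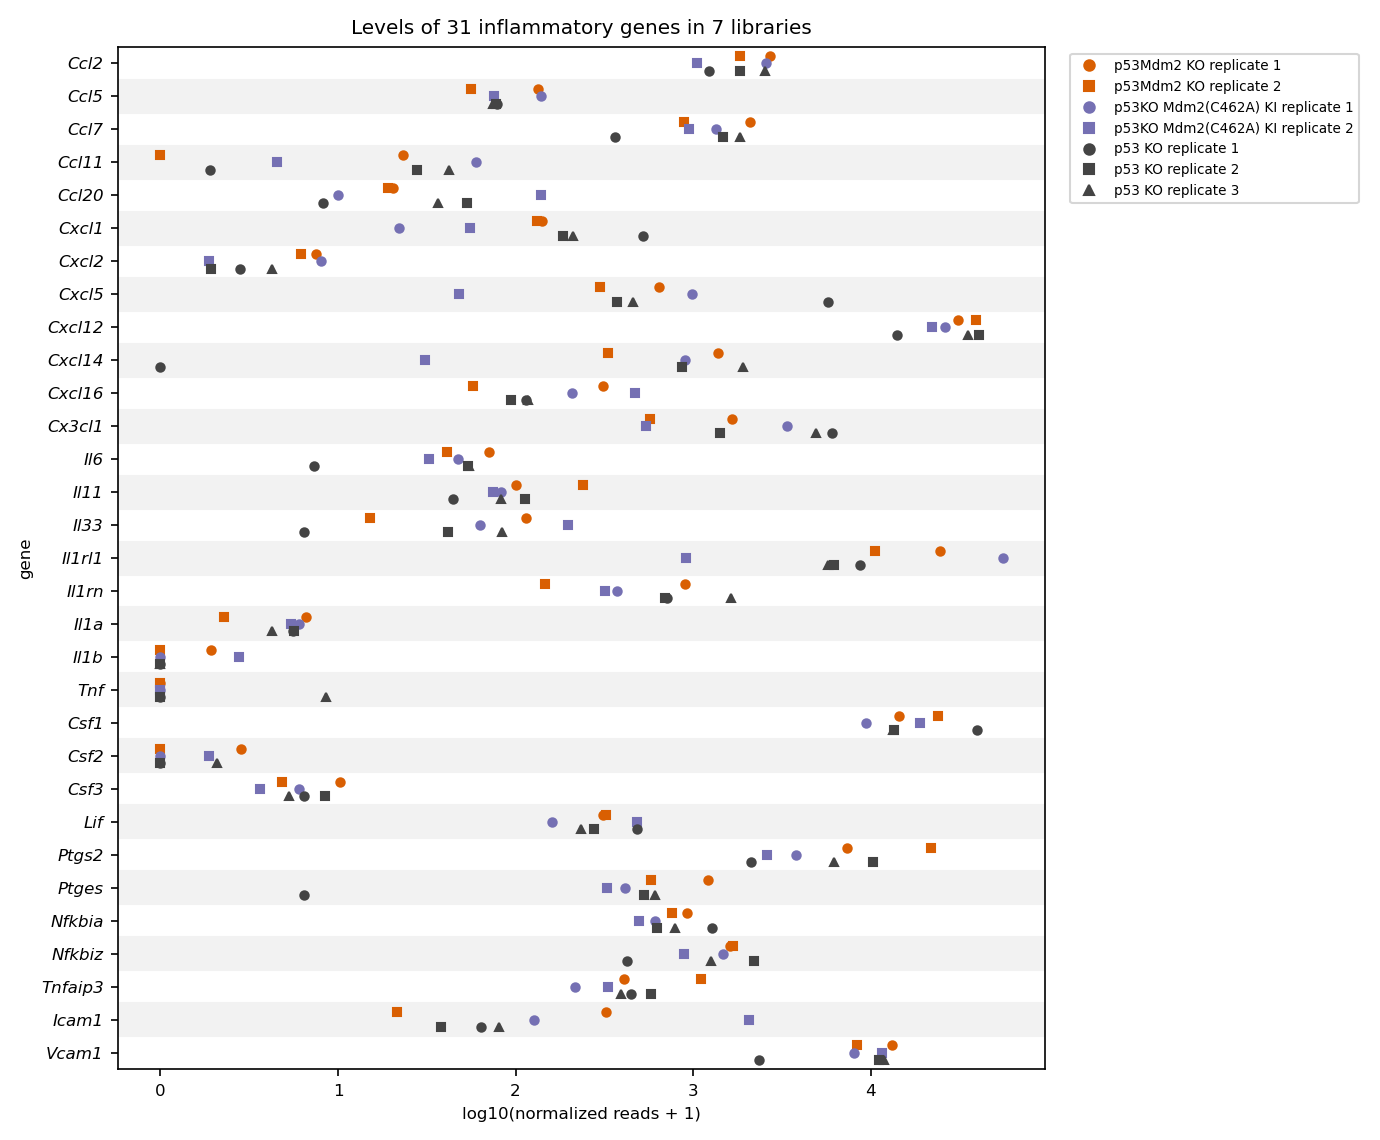
Level of each of the 31 inflammatory genes in the 7 libraries, as log10 of normalized reads plus 1; each point is a library, orange for p53Mdm2 KO, purple for p53KO Mdm2(C462A) KI and black for p53 KO, with the shape giving the replicate. Cxcl12, Csf1, Il1rl1 and Vcam1 lie at the right, Tnf, Il1b and Csf2 at the left, and p53 KO replicate 1 is an extreme point for 16 of the 25 tested genes.

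The members' levels also differed widely between libraries. The highest library exceeded the lowest by a median of 9.59-fold over the 25 tested members (after adding 1 normalized read), against 2.09-fold over all 16900 genes tested, and the ratio reached 10-fold for 12 members (48%) and for 11.1% of all genes. p53 KO replicate 1 was the highest library for 5 members and the lowest for 11, so it was an extreme for 64% of the members, against 54.5% of all genes. p53KO Mdm2(C462A) KI replicate 2 was an extreme for 40% of the members, against 42.6% of all genes. p53 KO replicates 2 and 3 were each an extreme for 8% of the members, against 18.8% and 21% of all genes.

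**Figure D2:**
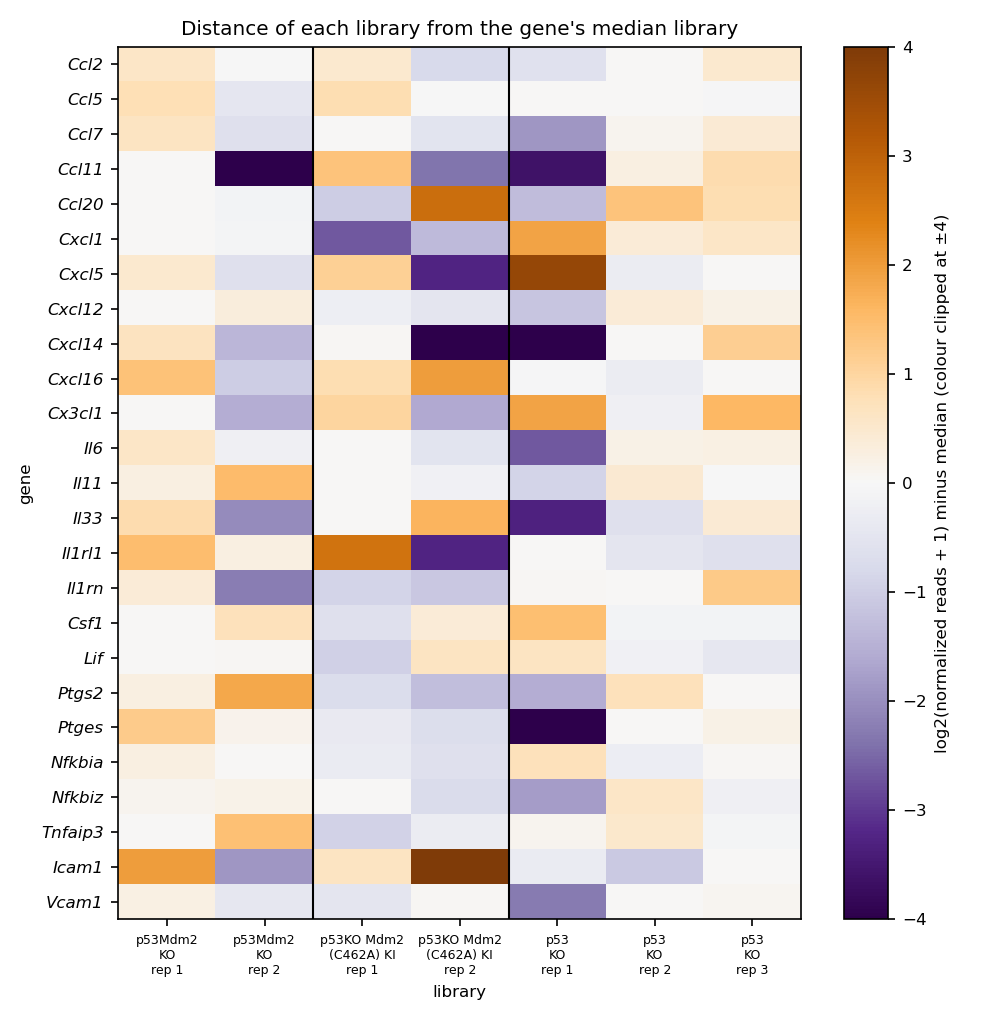
Distance of each library from the gene's median over the 7 libraries, on the scale log2 of normalized reads plus 1, for the 25 tested inflammatory genes; orange is above and purple below the median, and colour is clipped at 4. The strongest colours stand mostly in a few columns, above all p53 KO replicate 1 (Ptges and Cxcl14 low, Cxcl5 high) and p53KO Mdm2(C462A) KI replicate 2 (Il1rl1, Cxcl14 and Cxcl5 low, Icam1 high). Ccl11 is low in both of these and lowest in p53Mdm2 KO replicate 2.

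For p53Mdm2 KO against p53 KO, which asks what loss of Mdm2 adds to loss of p53, few inflammatory genes were separated by genotype. Il1rl1, the receptor for interleukin-33, was the only member higher in both p53Mdm2 KO libraries than in every p53 KO library, and Cxcl1 was the only one lower, which is 4% of the 25 members in each direction where 8.99% and 9.2% of all genes tested had that pattern. By limma with Benjamini-Hochberg adjustment over 16900 genes, no member and no gene passed an adjusted p of 0.05 (0% of genes), and no member had an unadjusted p under 0.05, where 507 genes did (3%, with 1.51% higher and 1.49% lower). Limma's voom on recovered reads also called no gene and put 475 under that unadjusted threshold. The fitted log2 difference was above 0 for 17 of 25 members and for 48.2% of all genes, with a median of 0.35 over the members and -0.01 over all genes. The members' median was 0.04 without p53 KO replicate 1, 0.03 without p53Mdm2 KO replicate 1 and 0.54 without p53 KO replicate 3. Differences of at least 1 on the log2 scale were fitted for 7 members and for 5.25% of all genes.

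For p53KO Mdm2(C462A) KI against p53 KO, which asks about the RING change, Cxcl1, Il1rn, Nfkbia and Tnfaip3 were lower in both p53KO Mdm2(C462A) KI libraries than in all 3 p53 KO libraries, and Cxcl16 and Icam1 were higher in both. These are 4 and 2 of 25 members, while 14.4% and 14.1% of all genes tested were lower and higher without overlap. No gene passed the adjusted threshold with limma (0%). At an unadjusted p under 0.05 there was 1 member, Cxcl1, which was lower, and 1761 genes (10.4%, with 4.98% higher and 5.44% lower), and voom gave 0 called genes and 1705 under that unadjusted threshold. The members' median log2 difference was 0.04, against 0.01 for all genes, with 13 of 25 members above 0 (51.2% of all genes) and 8 at 1 or more in either direction (9.39% of all genes). With single libraries left out the members' median ran from -0.39, without p53 KO replicate 1, to 0.29, without p53 KO replicate 2. Without p53 KO replicate 1, 9 members were lower without overlap, where 24.5% of all genes were.

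For p53KO Mdm2(C462A) KI against p53Mdm2 KO, which sets the altered protein against its absence, 8 members were lower in both p53KO Mdm2(C462A) KI libraries than in both p53Mdm2 KO libraries, and none was higher. They were the chemokines Cxcl1 and Cxcl12, the cytokine Il11, the prostaglandin enzymes Ptgs2 and Ptges, and the feedback genes Nfkbia, Nfkbiz and Tnfaip3. These are 32% of the members, where 17.1% of all genes were lower and 15.8% higher without overlap. With limma no gene passed the adjusted threshold (0%), and 3 members (Cxcl1, Ptgs2 and Tnfaip3), all lower, and 503 genes (2.98%, with 1.2% higher and 1.78% lower) had an unadjusted p under 0.05; voom called none and put 459 genes under it. The median log2 difference was -0.44 over the members and 0.01 over all genes, with 7 of 25 members above 0 (51.7% of all genes) and 9 at 1 or more in either direction (5.69% of all genes). Leaving out p53KO Mdm2(C462A) KI replicate 2 gave a members' median of -0.15, and leaving out p53Mdm2 KO replicate 1 gave -0.18. The comparisons share samples, the first 2 the p53 KO libraries and the third those of both mutants, so their counts are not independent of each other.

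**Figure D3:**
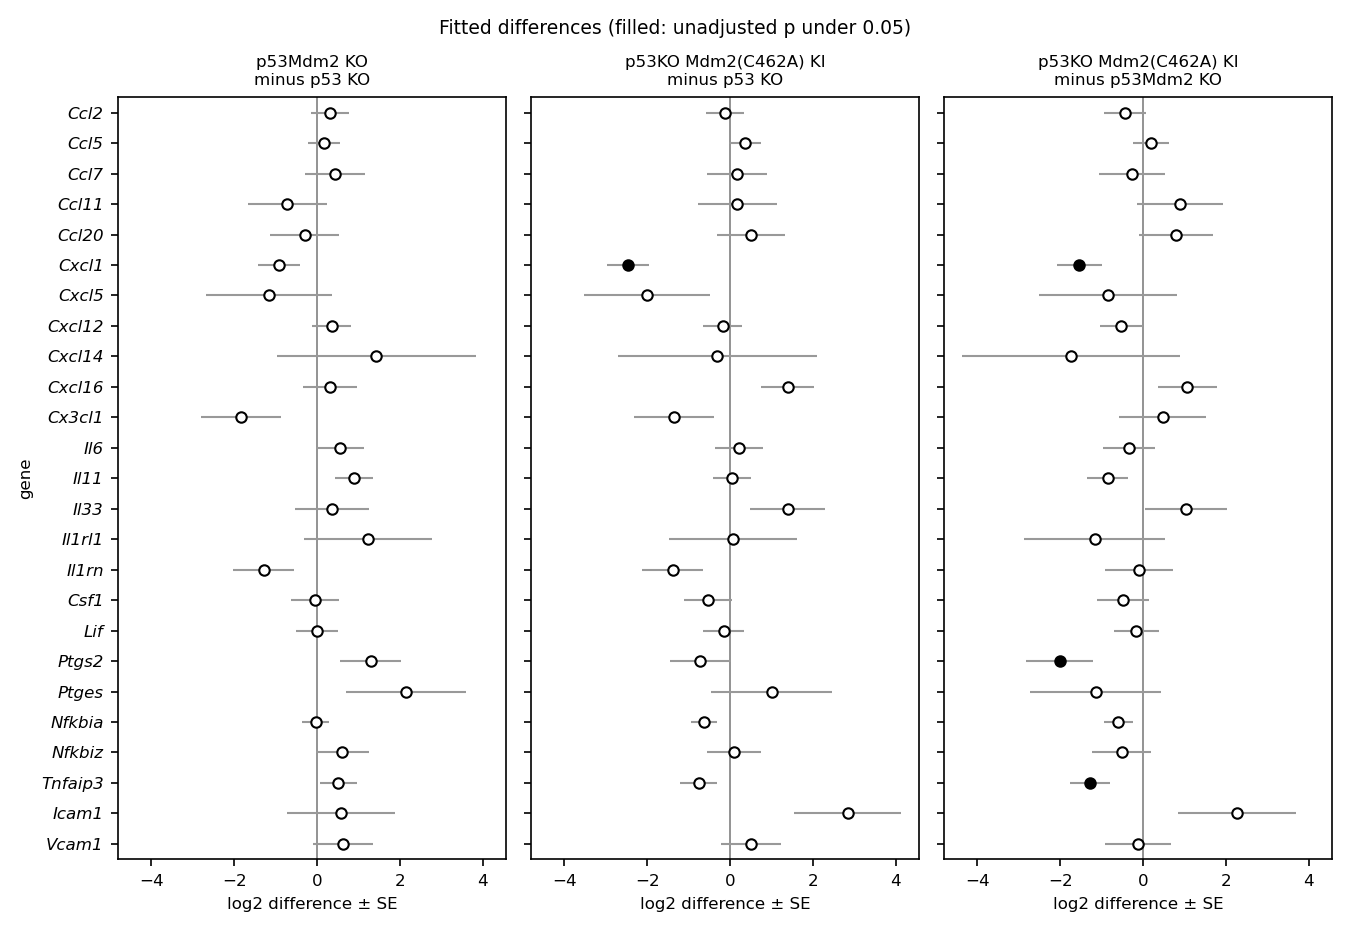
Fitted log2 differences of the 25 tested inflammatory genes with their standard errors in the 3 comparisons, on the deposited log2 scale; filled points have an unadjusted p under 0.05. Cxcl1 is filled in the middle and right panels and Ptgs2 and Tnfaip3 in the right panel, no point passed the adjusted threshold, and bars are widest for Cxcl14, Il1rl1, Cxcl5 and Ptges.

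Among the CC chemokines, Ccl2 and Ccl7, neighbouring monocyte attractants on chromosome 11, were abundant in every group. Ccl2 had 2724 and 1833 normalized reads in p53Mdm2 KO, 2557 and 1057 in p53KO Mdm2(C462A) KI and 1231, 1841 and 2552 in p53 KO. Ccl7 had 2086 and 883 in p53Mdm2 KO, 1349 and 949.9 in p53KO Mdm2(C462A) KI and 363.6, 1466 and 1825 in p53 KO. The groups overlapped for both genes, and p53 KO replicate 1 was the lowest p53 KO library for each. Ccl5, an attractant of T cells and monocytes, had 134 and 55.4 in p53Mdm2 KO, 137 and 75.0 in p53KO Mdm2(C462A) KI and 77.3, 76.1 and 73.3 in p53 KO. The p53 KO libraries agreed closely for this gene, while replicate 1 of each mutant was above its replicate 2, by 2.41-fold in p53Mdm2 KO and 1.83-fold in p53KO Mdm2(C462A) KI. The eosinophil attractant Ccl11 ranged from 0 to 59.1 normalized reads and Ccl20, the ligand of Ccr6, from 7.27 to 138, with the highest Ccl20 value in p53KO Mdm2(C462A) KI replicate 2.

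Values of Cxcl1, a neutrophil attractant, did not overlap between any of the 3 genotypes. The share of all genes separated in this way was not counted. In single comparisons, 9.2% (p53Mdm2 KO against p53 KO), 14.4% (p53KO Mdm2(C462A) KI against p53 KO) and 17.1% (p53KO Mdm2(C462A) KI against p53Mdm2 KO) of all genes were lower without overlap. Cxcl1 had 139 and 131 normalized reads in p53Mdm2 KO, 21.1 and 54.7 in p53KO Mdm2(C462A) KI and 521, 185 and 210.3 in p53 KO. p53KO Mdm2(C462A) KI was lowest and p53 KO highest, with p53Mdm2 KO between them. Means were 135 ± 5.55 in p53Mdm2 KO (SD, n = 2), 37.9 ± 23.8 in p53KO Mdm2(C462A) KI (SD, n = 2) and 305 ± 187 in p53 KO (SD, n = 3). The log2 difference was -2.46 ± 0.50 (SE) for p53KO Mdm2(C462A) KI against p53 KO (limma, unadjusted p = 0.00228, adjusted p = 0.437). It was -1.53 ± 0.55 for p53KO Mdm2(C462A) KI against p53Mdm2 KO (limma, unadjusted p = 0.0299, adjusted p = 1.00), and -0.93 ± 0.50 for p53Mdm2 KO against p53 KO (limma, unadjusted p = 0.113, adjusted p = 1.00). Without p53 KO replicate 1, the highest library, the first of these was -2.02 (adjusted p = 0.305). Cxcl2, whose promoter carries the same stretch, stayed between 0.882 and 7.02 normalized reads in all 7 libraries.

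Cxcl5, a further neutrophil attractant from the chromosome 5 cluster, was set by single libraries. It had 644 and 297 normalized reads in p53Mdm2 KO, 981 and 46.7 in p53KO Mdm2(C462A) KI and 5722, 371 and 455 in p53 KO. p53 KO replicate 1 was 13.9-fold above the mean of the other p53 KO libraries, and the p53KO Mdm2(C462A) KI replicates differed by 21.0-fold. The log2 differences from p53 KO were -1.15 ± 1.52 (SE) in p53Mdm2 KO and -1.995 ± 1.52 in p53KO Mdm2(C462A) KI, and without p53 KO replicate 1 the p53Mdm2 KO value turned in sign, to 0.09. Without p53KO Mdm2(C462A) KI replicate 2, the value for p53KO Mdm2(C462A) KI was -0.030.

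Cxcl12, the most abundant chemokine, had 30997 and 38963 normalized reads in p53Mdm2 KO, 26313 and 22182 in p53KO Mdm2(C462A) KI and 14024, 40628 and 35365 in p53 KO. Its p53KO Mdm2(C462A) KI libraries lay below both p53Mdm2 KO libraries and between the p53 KO libraries, and the difference of the mutants was -0.52 ± 0.51 on the log2 scale (SE). Cxcl14, a chemokine of epithelia and fibroblasts, had 1385 and 331 in p53Mdm2 KO, 894 and 30.0 in p53KO Mdm2(C462A) KI and 0, 860 and 1912 in p53 KO. The absent reads in p53 KO replicate 1 allow up to 2.73 normalized reads, and the p53KO Mdm2(C462A) KI replicates differed by 29.8-fold, so that groups overlapped widely.

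Cxcl16 and Cx3cl1, chemokines made as membrane-bound proteins that can be shed, differed in pattern. Cxcl16 had 309.9 and 56.7 normalized reads in p53Mdm2 KO, 208 and 468 in p53KO Mdm2(C462A) KI and 114, 93.7 and 117 in p53 KO. Both p53KO Mdm2(C462A) KI libraries were above every p53 KO library, with a log2 difference of 1.39 ± 0.65 (SE; limma, unadjusted p = 0.0729, adjusted p = 0.520), while the p53Mdm2 KO libraries lay on either side. Without p53KO Mdm2(C462A) KI replicate 2 the difference was 0.84. Cx3cl1 had 1652 and 570.4 in p53Mdm2 KO, 3373 and 541 in p53KO Mdm2(C462A) KI and 6078, 1420.1 and 4953 in p53 KO. Its highest values were in p53 KO replicates 1 and 3, but p53 KO replicate 2 lay among the mutants, and the log2 differences from p53 KO were -1.83 ± 0.96 (SE) in p53Mdm2 KO and -1.35 ± 0.96 in p53KO Mdm2(C462A) KI. The Cx3cl1 difference was -1.07 in p53Mdm2 KO without its replicate 2, and in p53KO Mdm2(C462A) KI it was -2.65 without its replicate 1 and -0.054 without its replicate 2.

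Of the interleukins, Il6, which drives the acute-phase response, ranged from 6.36 normalized reads in p53 KO replicate 1 to 69.6 in p53Mdm2 KO replicate 1. Il11, a related cytokine that acts on stromal cells, had 99.3 and 238 in p53Mdm2 KO, 82.2 and 73.2 in p53KO Mdm2(C462A) KI and 43.6, 112 and 82.0 in p53 KO. Both p53Mdm2 KO libraries were above both p53KO Mdm2(C462A) KI libraries, with a log2 difference of -0.85 ± 0.50 (SE) for p53KO Mdm2(C462A) KI against p53Mdm2 KO. Lif, another cytokine that signals through gp130, had 309 and 321 in p53Mdm2 KO, 159 and 482 in p53KO Mdm2(C462A) KI and 482, 274 and 232 in p53 KO, and its groups overlapped.

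Il33, an alarmin of the interleukin-1 family, and its receptor Il1rl1 both differed widely between replicates. Il33 had 114 and 14.2 normalized reads in p53Mdm2 KO, 62.2 and 197 in p53KO Mdm2(C462A) KI and 5.45, 40.8 and 83.1 in p53 KO. Il1rl1 had 24572 and 10519 in p53Mdm2 KO, 55631 and 907 in p53KO Mdm2(C462A) KI and 8758, 6211 and 5769 in p53 KO. The p53KO Mdm2(C462A) KI replicates held the highest and the lowest Il1rl1 value of the study, 61.4-fold apart, and both p53Mdm2 KO libraries were above all p53 KO libraries. The log2 differences from p53 KO were 1.24 ± 1.55 (SE) in p53Mdm2 KO and 0.08 ± 1.55 in p53KO Mdm2(C462A) KI (limma, adjusted p = 1.00 and 0.992), and the p53Mdm2 KO value was 0.63 without p53Mdm2 KO replicate 1. The receptor antagonist Il1rn, which blocks interleukin-1, had 897 and 146 in p53Mdm2 KO, 374 and 318 in p53KO Mdm2(C462A) KI and 713, 691 and 1631 in p53 KO. It was lower in both p53KO Mdm2(C462A) KI libraries than in all p53 KO libraries, with a log2 difference of -1.38 ± 0.74 (SE; limma, unadjusted p = 0.109, adjusted p = 0.571). The interleukin-1 genes themselves, Il1a and Il1b, had at most 5.57 and 1.76 normalized reads.

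Csf1 had 14496 and 23942 normalized reads in p53Mdm2 KO, 9454 and 18954 in p53KO Mdm2(C462A) KI and 39877, 13567 and 13299 in p53 KO. p53 KO replicate 1 was 2.97-fold above the mean of the other p53 KO libraries, and the groups overlapped. Csf2 and Csf3, growth factors of granulocytes and macrophages, had at most 1.86 and 9.28 normalized reads in any library.

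Both prostaglandin enzymes were lower in the 2 p53KO Mdm2(C462A) KI libraries than in the 2 p53Mdm2 KO libraries. Ptgs2, the inducible cyclooxygenase, had 7377 and 21773 normalized reads in p53Mdm2 KO, 3780 and 2597 in p53KO Mdm2(C462A) KI and 2122, 10330 and 6183 in p53 KO. The p53KO Mdm2(C462A) KI libraries lay below both p53Mdm2 KO libraries, and the p53 KO libraries spanned both. The log2 difference was -2.01 ± 0.81 (SE) for p53KO Mdm2(C462A) KI against p53Mdm2 KO (limma, unadjusted p = 0.0445, adjusted p = 1.00), and it was -1.23 without p53Mdm2 KO replicate 2. The differences from p53 KO were 1.30 ± 0.74 in p53Mdm2 KO and -0.71 ± 0.74 in p53KO Mdm2(C462A) KI, and the p53Mdm2 KO value was 2.08 without p53Mdm2 KO replicate 1, 0.52 without its replicate 2 and 0.66 without p53 KO replicate 1. Ptges, which converts the product of Ptgs2 to prostaglandin E2, had 1208 and 577 in p53Mdm2 KO, 412 and 328 in p53KO Mdm2(C462A) KI and 5.45, 527 and 607 in p53 KO. p53 KO replicates 2 and 3 averaged 104.0-fold more than replicate 1, and without replicate 1 the log2 difference from p53 KO was 0.55 in p53Mdm2 KO (2.15 with it) and -0.60 in p53KO Mdm2(C462A) KI (1.01 with it).

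Of the feedback genes, Nfkbia and Tnfaip3 had their lowest values in the 2 p53KO Mdm2(C462A) KI libraries. Nfkbia, which encodes the inhibitor IkB-alpha, had 922 and 759.6 normalized reads in p53Mdm2 KO, 607 and 496 in p53KO Mdm2(C462A) KI and 1276, 626 and 787 in p53 KO. Both p53KO Mdm2(C462A) KI libraries were below all others, the nearer by a narrow margin. The log2 difference was -0.63 ± 0.32 (SE) from p53 KO and -0.59 ± 0.35 from p53Mdm2 KO (limma, unadjusted p = 0.0969 and 0.141). Tnfaip3, a ubiquitin-editing enzyme that shuts off signalling to NF-kB, had 409 and 1101 in p53Mdm2 KO, 216 and 331 in p53KO Mdm2(C462A) KI and 445, 580.1 and 389 in p53 KO. Again both p53KO Mdm2(C462A) KI libraries were below all others. The log2 difference was -1.27 ± 0.49 (SE) from p53Mdm2 KO (limma, unadjusted p = 0.0378, adjusted p = 1.00) and -0.76 ± 0.44 from p53 KO, and the first of these was -1.96 without p53Mdm2 KO replicate 1 and -0.58 without replicate 2, the highest library. Nfkbiz, a nuclear IkB protein that acts as a cofactor for some NF-kB targets, had 1605 and 1671 in p53Mdm2 KO, 1472 and 886 in p53KO Mdm2(C462A) KI and 425, 2206 and 1265 in p53 KO. Its mutants did not overlap, but the p53 KO libraries spanned both, with a log2 difference of -0.51 ± 0.71 (SE) between p53KO Mdm2(C462A) KI and p53Mdm2 KO.

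The adhesion molecules Icam1 and Vcam1, which hold leukocytes on the cell surface, differed in pattern. Icam1 had 322 and 20.6 normalized reads in p53Mdm2 KO, 126 and 2056 in p53KO Mdm2(C462A) KI and 62.7, 37.1 and 79.8 in p53 KO. Both p53KO Mdm2(C462A) KI libraries were above all p53 KO libraries, with a log2 difference of 2.84 ± 1.30 (SE; limma, unadjusted p = 0.0683, adjusted p = 0.512), which was 4.76 without p53KO Mdm2(C462A) KI replicate 1 and 0.93 without its replicate 2. Replicates differed by 15.6-fold in p53Mdm2 KO and 16.3-fold in p53KO Mdm2(C462A) KI. Vcam1 had 13118 and 8324 in p53Mdm2 KO, 8058 and 11513 in p53KO Mdm2(C462A) KI and 2342, 11204 and 11833 in p53 KO, and only p53 KO replicate 1 stood apart.

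**Figure D4:**
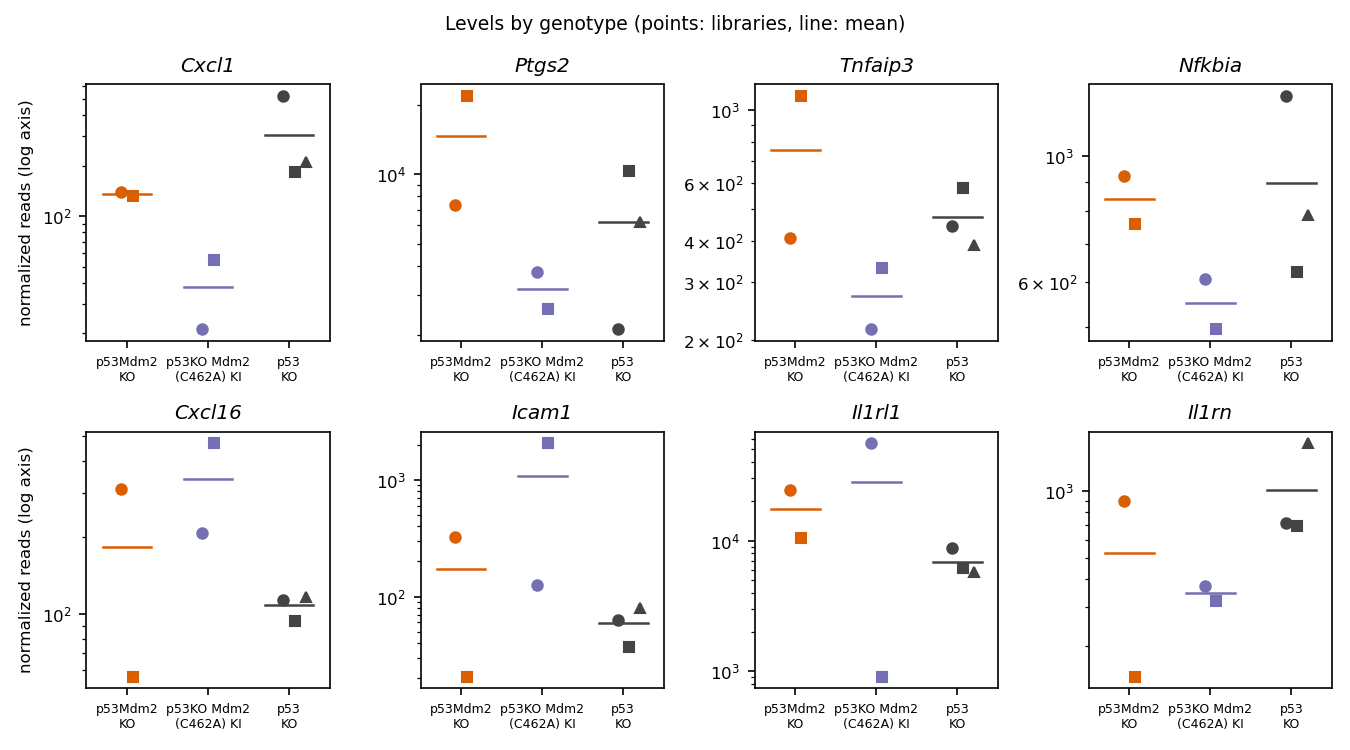
Normalized reads of 8 inflammatory genes by genotype on log axes, with a point per library (circle replicate 1, square replicate 2, triangle replicate 3) and a line at the group mean. Cxcl1, Tnfaip3 and Nfkbia are lowest in both p53KO Mdm2(C462A) KI libraries, Cxcl16 and Icam1 are higher there than in p53 KO, and the Il1rl1 replicates of p53KO Mdm2(C462A) KI lie at 55631 and 907.

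Markers of other cell types differed between the same libraries. The sum of 4 mesothelial markers (Msln, Upk3b, Wt1 and Lrrn4, none at 0 in any library) was 12734 and 1504 normalized reads in p53Mdm2 KO, 2547 and 31419 in p53KO Mdm2(C462A) KI and 10314, 1424 and 2396 in p53 KO. Its highest library was also the highest for 5 of the 25 tested members (Icam1, Cxcl16, Il33, Ccl20 and Lif). The same library was the highest for 3591 of the 16900 genes tested, a similar share. p53Mdm2 KO replicate 1 was the second highest for the sum and for Icam1, Cxcl16 and Il33, but not for Ccl20 or Lif. p53 KO replicate 1, the third highest for the sum, was not high for Icam1, Cxcl16, Il33 or Ccl20, but was the second highest for Lif. The sum of 10 leukocyte markers was 1615 and 480.2 in p53Mdm2 KO, 1473 and 429 in p53KO Mdm2(C462A) KI and 542, 558 and 3230 in p53 KO. Of these markers, Lyz2 alone had 1870 in p53 KO replicate 3, 850 in p53Mdm2 KO replicate 1 and 781 in p53KO Mdm2(C462A) KI replicate 1. Itgam lay between 204 and 319 in all libraries. Ptprc, Emr1, Aif1 and Tyrobp were all at 0 in p53 KO replicate 1, and at least 1 of the last 3 was at 0 in every library except p53Mdm2 KO replicate 1 and p53 KO replicate 3. The 6 endothelial markers summed to 868 and 1083 in p53Mdm2 KO, 467 and 612 in p53KO Mdm2(C462A) KI and 88.2, 601 and 613 in p53 KO. Of the 6, Cdh5, Kdr and Emcn were lowest in p53 KO replicate 1, and Pecam1, Tek and Tie1 in other libraries. That library was also lowest for 11 of the 25 tested members, Vcam1 and Cxcl12 among them, and for 4462 of the 16900 genes tested. The 5 epithelial markers summed to 2296 and 1975 in p53Mdm2 KO, 386 and 2408 in p53KO Mdm2(C462A) KI and 785, 1068 and 451 in p53 KO. Cdh5, an endothelial marker, and Epcam, an epithelial marker, were at 0 in p53 KO replicate 1. Neither reached the mean of 10 normalized reads needed for the test. Cdh1, another epithelial marker, was instead highest in that library, at 345 normalized reads. The part of these cell types in the results was not tested, and in bulk RNA fewer cells of a type and less RNA per cell cannot be told apart.

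The receptors, signalling proteins and other targets around these genes gave no call either. In 6 lists of pathway genes that exclude the members, 92 of 110 genes were tested and none passed the adjusted threshold in any comparison. At an unadjusted p under 0.05, 3 were higher and 2 lower in p53Mdm2 KO than in p53 KO, 5 higher and 3 lower in p53KO Mdm2(C462A) KI than in p53 KO, and 4 higher and 2 lower in p53KO Mdm2(C462A) KI than in p53Mdm2 KO. The shares of all genes under that threshold, higher and lower, were 1.51% and 1.49%, 4.98% and 5.44%, and 1.2% and 1.78% for the same comparisons. The listed genes' median log2 differences in that order were -0.07, 0.04 and 0.13. None of the 5 NF-kB subunits, the 19 genes of the activating pathway or the 10 tested inhibitors had an unadjusted p under 0.05. Higher and lower without overlap were 9 and 9, 11 and 11, and 18 and 13 of the 92 in the same order. The shares of all genes were 8.99% and 9.2%, 14.1% and 14.4%, and 15.8% and 17.1%. Ccl17, Ptger2 and Traf1, counted under the unadjusted threshold, passed the filter only through the group where they were high. Rela, the main activating subunit, had 2904 and 2806 normalized reads in p53Mdm2 KO, 2610.1 and 3158 in p53KO Mdm2(C462A) KI and 2823, 2614 and 2056 in p53 KO. Nfkb1, its usual partner, lay between 2451 and 3294 in all libraries. Of the kinase module that relays interleukin-1 and TNF signals, Tab2 lay between 4370.0 and 7320.4 and Map3k7 between 3133 and 4117, and of the inhibitors Cyld lay between 1642 and 4356 and Traf3 between 1272 and 1951.

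Among 21 tested receptors, Il1rap, the shared co-receptor for interleukin-1 and interleukin-33, had 2086 and 1728 normalized reads in p53Mdm2 KO, 2376 and 2838 in p53KO Mdm2(C462A) KI and 1592, 1466 and 1457 in p53 KO. Its 3 groups did not overlap, and the log2 difference was 0.78 ± 0.17 (SE) for p53KO Mdm2(C462A) KI against p53 KO (limma, unadjusted p = 0.00318, adjusted p = 0.437). The share of all genes with no overlap between any of the 3 groups was not counted. Tnfrsf1b, the second TNF receptor, had 1131 and 614 in p53Mdm2 KO, 804 and 1523 in p53KO Mdm2(C462A) KI and 1841, 1657 and 1511 in p53 KO, with a log2 difference of -0.98 ± 0.36 (SE) in p53Mdm2 KO (limma, unadjusted p = 0.0312, adjusted p = 1.00). Csf1r, the receptor for Csf1 and a macrophage gene, had 83.5 and 36.1 in p53Mdm2 KO, 49.1 and 13.2 in p53KO Mdm2(C462A) KI and 138, 61.3 and 325 in p53 KO. It was lower in both p53KO Mdm2(C462A) KI libraries than in all p53 KO libraries (log2 difference -1.85 ± 0.69, SE; limma, unadjusted p = 0.0343, adjusted p = 0.452). Cxcr6, the receptor for Cxcl16, was the other receptor under the unadjusted threshold, named after its values were seen. It had 83.5 and 30.9 in p53Mdm2 KO, 28.1 and 3.53 in p53KO Mdm2(C462A) KI and 8.18, 8.35 and 21.6 in p53 KO. The log2 difference was 1.31 ± 0.53 (SE) in p53Mdm2 KO against p53 KO (limma, unadjusted p = 0.0441) and did not pass the adjusted threshold.

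Among 10 tested prostaglandin genes, Ptgs1, the constitutive cyclooxygenase, was higher in every mutant library than in every p53 KO library. Higher without overlap against p53 KO were 8.99% of all genes in p53Mdm2 KO and 14.1% in p53KO Mdm2(C462A) KI. The share with both was not counted. Ptgs1 had 6360.2 and 3583 normalized reads in p53Mdm2 KO, 3681 and 6042 in p53KO Mdm2(C462A) KI and 664, 2531 and 2091 in p53 KO, with log2 differences of 1.63 ± 0.61 (SE) and 1.62 ± 0.61 for the mutants in that order (limma, adjusted p = 1.00 and 0.454). Ptger2, a prostaglandin E2 receptor, had 13.0 and 3.86 in p53Mdm2 KO, 22.1 and 96.1 in p53KO Mdm2(C462A) KI and 3.64, 1.86 and 7.55 in p53 KO, a log2 difference of 1.84 ± 0.50 (SE) for p53KO Mdm2(C462A) KI against p53 KO (limma, unadjusted p = 0.009, adjusted p = 0.437). For Ptger2, p53 KO replicates 1 and 2 and p53Mdm2 KO replicate 2 lay near the limit of 3 reads. p53KO Mdm2(C462A) KI replicate 2 was 4.36-fold above its replicate 1. Only the p53KO Mdm2(C462A) KI mean of Ptger2, 59.1, reached 10 normalized reads (8.43 in p53Mdm2 KO and 4.35 in p53 KO). The gene thus entered the test through the group where it was high, and its direction is tied to the filter.

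Of 27 tested further NF-kB targets and inflammatory genes, Ccl17, an attractant of T cells, had 2.78 and 1.29 normalized reads in p53Mdm2 KO, 3.01 and 3.53 in p53KO Mdm2(C462A) KI and 24.5, 12.1 and 32.4 in p53 KO. All mutant libraries were below all p53 KO libraries, near the limit of 3 reads, and the log2 differences were -1.33 ± 0.30 (SE) in p53Mdm2 KO and -1.15 ± 0.30 in p53KO Mdm2(C462A) KI (limma, adjusted p = 1.00 and 0.437). Only the p53 KO mean of Ccl17, 23.0, reached 10 normalized reads (2.04 in p53Mdm2 KO and 3.27 in p53KO Mdm2(C462A) KI). The gene thus entered the test through the group where it was high, and its direction is tied to the filter. Lower without overlap against p53 KO were 9.2% of all genes in p53Mdm2 KO and 14.4% in p53KO Mdm2(C462A) KI. Tnfsf11, the osteoclast factor RANKL, had 194 and 332 in p53Mdm2 KO, 176 and 49.4 in p53KO Mdm2(C462A) KI and 513, 436 and 452 in p53 KO. Again no mutant library reached the p53 KO libraries, with a log2 difference of -2.07 ± 0.48 (SE) in p53KO Mdm2(C462A) KI (limma, unadjusted p = 0.00413, adjusted p = 0.437). Il1f9, an interleukin-1 family cytokine, had 92.8 and 469.9 in p53Mdm2 KO, 44.1 and 33.5 in p53KO Mdm2(C462A) KI and 61.8, 65.0 and 78.7 in p53 KO, and differed by -2.04 ± 0.65 on the log2 scale (SE) between p53KO Mdm2(C462A) KI and p53Mdm2 KO. Traf1, Mmp13, Cebpb and Mmp3 were the other genes of this list under the unadjusted threshold in a comparison, named after their values were seen.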

How the data were processed

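RNA sequencing of 7 samples was deposited as 1 table of 29955 genes. TruSeq libraries from total RNA were read as single 50-base reads, per the labels' protocols. The submitters' processing notes name DESeq 1.14.0, Bowtie2 2.1.0, CASAVA 1.8.2 and mouse build mm9. How reads were counted, with which annotation and with or without strand, is not given in the sources used here. Overlapping genes and near-identical copies therefore cannot be told apart. The values deposited by the authors are log2-like and variance-stabilized, as inferred from the values, in which a gene without reads is 3.36 in every column. Inverting it gave normalized reads, and 1 step per sample turned these into whole reads for 100% of values (tolerance 0.05). Totals per library were 28468283 to 41453822 reads. Limits from a count of 0 cover counting error only.

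Limma 3.58.1 (R 4.3.3), with a mean-variance trend, was fitted to the deposited log2 values of all 7 samples, in 3 groups with 4 residual degrees of freedom, for 16900 genes whose mean reached 10 normalized reads. Its two-sided p-values were adjusted (Benjamini-Hochberg) across those genes, with a threshold of 0.05. Log2 differences understate those of genes with few reads. Because the deposited unit is not a count, count models were not the test, and voom, limma's model for read counts, served as an alternative. The fit was tested on simulated data.

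The members and gene lists were chosen with earlier results of these data known. Values in every sample are given for the 22 members with a mean of at least 100 in a group, or with an unadjusted p under 0.05 in a comparison, and ranges for the others. Each pathway list names up to 3 genes with the smallest unadjusted p under 0.05 in a comparison, or else the 2 of highest mean, together with the targeted genes Mdm2 and Trp53. Groups were taken from the sample titles. Exon lengths came from GENCODE M21 and promoters from RefSeq, matched by symbol and both on GRCm38, which is not the authors' build. Alternatives covered the pseudocount, filter, scaling, variance model, a replicate block, weights per sample and leaving out libraries. Counts of members without overlap after leaving out libraries were added after seeing the data.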

Additional observations from a re-analysis of the deposited data

How the results depend on the processing

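With 2 or 3 libraries a group, the number of libraries limits the precision. No gene passed the adjusted threshold in any of the 3 comparisons under the pseudocount, filter, scaling, variance, weighting, replicate block and single-library alternatives. The exception came with p53 KO replicate 1 and p53KO Mdm2(C462A) KI replicate 2 both left out, where 1 gene, Ifi202b, named after its value was seen, was called between p53Mdm2 KO and p53 KO (log2 difference -6.70, limma, adjusted p = 0.0315). The smallest adjusted p of a named member under any alternative was 0.211, for Icam1 in p53KO Mdm2(C462A) KI against p53 KO without p53KO Mdm2(C462A) KI replicate 1. For Cxcl1 in that comparison the adjusted p ran from 0.235 to 0.999.

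Members with an unadjusted p under 0.05 numbered 0 to 3 for p53Mdm2 KO against p53 KO when single libraries were left out (2.04% to 4.64% of all genes) and 2 with both left out (6.46%). For p53KO Mdm2(C462A) KI against p53 KO they numbered 1 to 5 (3.78% to 13.6%) and 4 (7.4%), and 3 (13.7%) with sample weights, which gave p53 KO replicate 1 a weight of 0.262. For p53KO Mdm2(C462A) KI against p53Mdm2 KO they numbered 0 to 5 (0.361% to 8.99%) and 6 (3.39%).

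Members higher and lower without overlap, with single libraries left out, numbered 1 to 10 and 1 to 8 for p53Mdm2 KO against p53 KO, 2 to 6 and 4 to 9 for p53KO Mdm2(C462A) KI against p53 KO, and 0 to 7 and 8 to 14 for p53KO Mdm2(C462A) KI against p53Mdm2 KO. The shares of all genes, higher and lower, ran from 8.99% to 23.9% and 9.2% to 25.3%, from 14.1% to 30% and 14.4% to 29.3%, and from 15.8% to 36.1% and 17.1% to 36.5% in that order. With both libraries left out they numbered 3 and 3, 7 and 13, and 5 and 12 in the same order. Fewer libraries overlap less often by construction, and the shares of all genes with both left out were 17.6% and 18.5%, 38.4% and 38.0%, and 32.7% and 30.3%.

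Some log2 differences of members changed sign. For p53Mdm2 KO against p53 KO, Cxcl14 was -0.41 with sample weights and -0.89 with both libraries left out, and ran from -0.89 to 2.89 with single libraries left out, while Cxcl5 was 0.090 with both left out and ran from -1.85 to 0.090. For p53KO Mdm2(C462A) KI against p53 KO, Ptges was -0.33 with sample weights and -0.44 with both left out, and ran from -0.60 to 1.86, and with both left out Cx3cl1 was 0.34 and Cxcl5 1.22. For p53KO Mdm2(C462A) KI against p53Mdm2 KO, Cxcl14 was 0.38 and Il1rl1 1.79 with both left out, and with single libraries left out Cxcl14 ran from -3.86 to 0.38, Il1rl1 from -4.12 to 1.79 and Il33 from -0.011 to 2.08. The cause was not tested, beyond the libraries left out.

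With the replicate number as a block, 0 genes were called in each comparison, and members with an unadjusted p under 0.05 numbered 1, 3 and 2 in the order above, with 2.62%, 8.79% and 1.65% of all genes. Deviations of same-numbered libraries correlated between -0.164 and 0.203, and those of differently numbered libraries between -0.232 and 0.232. In a group of 2 libraries the deviations mirror each other, so few of these values are independent. The check therefore cannot decide whether the numbers pair the samples.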
